A study of Mus musculus with 12 samples.

Results

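The comparison described here set bone marrow progenitor cultures that carried retroviral Hoxa9 together with Meis1 against cultures that carried Hoxa9 with the vector named MIG. It rests on 4 of the 12 arrays of the series, 1 array of Hoxa9 plus Meis1 and 3 arrays of Hoxa9 MIG, which were chosen by their titles. Of the 23332 probe sets on the array, the 14996 that carry 1 gene symbol were used, and they cover 14860 genes. Where a gene has several probe sets, the one of highest mean level over the 12 arrays stands for it. All cultures came from progenitor cells of the bone marrow of 12-week-old C57B/6 mice labelled female, which had received 5-FU, and were grown as primary cultures in DMEM with 15% FCS, IL3, SCF and IL6 after transduction with an MSCV retroviral construct. The labels give the Meis1 array as a wild-type mouse culture with overexpressed HOXA9 and Meis1, and the MIG arrays as wild-type cultures with overexpressed HOXA9 alone.

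The other 8 arrays served as surroundings for these 4. They also entered the choice of probe set for a gene and the linear model described below. They hold 3 arrays of wild-type cultures with Hoxa9 and added miR-155, 3 arrays of Hoxa9 MIG cultures from miR-155 knockout mice, and 2 arrays of wild-type cultures with Hoxa9 and the vector MIY, which the design text calls empty. Every culture in the series carried retroviral Hoxa9, so no comparison here shows an effect of Hoxa9 itself. The title of the Meis1 array ends in a mark, 3w, which the labels do not explain, and the labels do not state which of the vector controls was cultured beside it.

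Hoxa9 is a homeobox transcription factor of early blood progenitors that is switched off as myeloid cells mature, and its forced expression keeps myeloid progenitors dividing in culture. Meis1 is a homeodomain protein of the TALE class that binds DNA together with Pbx and Hox proteins. In mouse models, adding Meis1 to Hoxa9 speeds the onset of acute myeloid leukaemia, and the tyrosine kinase receptor Flt3 is a well-known gene of this programme. The series title addresses microRNA-155 as a target of Meis1.

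The values are log2 expression levels, so a difference of 1 is a 2-fold difference. With a single Meis1 array, no replicate check of that culture exists, and an exact one-sided test of 1 array against 3 cannot give a p below 0.25. A gene was therefore counted as higher or lower when the Meis1 array differed from the mean of the MIG arrays by at least 2-fold and lay outside the range of all 3 MIG arrays. This rule is a description without a p-value. Beside it stand the adjusted p-values of limma, a linear model with a shared estimate of the spread, which was fitted over all 12 arrays and takes the lone Meis1 array to scatter as much as the replicated groups do. Levels on the MIG arrays are given array by array or as mean ± SD (n = 3), and differences as the Meis1 array minus the MIG mean ± the standard error of limma.

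The 3 MIG arrays lay close together, with a median SD of 0.0873 per probe set and a 95th percentile of 0.286. Across probe sets with 1 symbol, the Pearson correlation of the Meis1 array with single MIG arrays was 0.964 to 0.968, against 0.996 between MIG arrays. It was 0.945 to 0.955 between the Meis1 array and the MIY arrays. The median difference between the Meis1 array and the MIG mean was 0.00932 over these probe sets, so the deposited values were compared as they are. Against the MIY mean the median difference was 0.229, and differences from MIY are given relative to that value. The median level of an array was 6.33 to 6.49, and the values hold no call of whether a probe set was detected.

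The Y-linked genes set the Meis1 array and the MIY arrays apart from the other cultures, although all arrays are labelled female. Eif2s3y, which encodes a translation initiation subunit from the Y chromosome, had a level of 8.24 on the Meis1 array, against 2.35, 2.44 and 2.37 on the MIG arrays. On the MIY arrays it was 9.23 and 9.31. Kdm5d, a Y-linked histone demethylase, had a level of 6.89 on the Meis1 array, against 3.35, 3.37 and 3.50 on the MIG arrays and 8.05 and 8.15 on the MIY arrays. The Meis1 and MIY arrays were thus high and the MIG arrays low, and for both genes the Meis1 array was under both MIY arrays. Whether the mice behind the Meis1 array differed from those behind the MIG arrays in other respects cannot be told apart from the presence of Meis1. MIY values are therefore given for some of the genes and lists below, and a fold without them is against MIG only.

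Against MIG, most of the difference lay on the lower side. On the Meis1 array 150 genes were higher (1.01% of the 14860 genes) and 657 were lower (4.42%). Counted as probe sets, 150 of 14996 were higher (1%) and 662 were lower (4.41%). The deeper the difference, the more one-sided it was: 33 genes were higher and 210 lower by at least 4-fold, 10 higher and 92 lower by at least 8-fold, and 2 higher and 46 lower by at least 16-fold. No gene that differed by 2-fold lay inside the range of the MIG arrays. With MIY in place of MIG the balance of probe sets depended on the scaling, with 364 higher and 928 lower relative to the median difference and 781 higher and 646 lower as deposited. Nearest to the threshold on the higher side were 2410141K09Rik, just past it at 4.13 on the Meis1 array against a MIG mean of 3.13, and Rgs5, just short of it at 5.95 against 4.95. On the lower side they were St3gal1, just past it at 8.99 against 9.99, and Arhgef10l, just short of it at 6.45 against 7.45.

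Limma called 910 genes higher (6.12%) and 1394 lower (9.38%) at an adjusted p under 0.05. Its calls include 116 of the 150 genes that were higher by the 2-fold rule and 623 of the 657 that were lower. Over all probe sets with a symbol, 38.9% of limma's calls were on the higher side, and 54.4% after quantile normalization of the 12 arrays; the 956 probe sets it called higher were 620 without MIG array 2 and 585 without MIG array 3. The same rule applied against the MIY arrays counted 361 genes higher (2.43%) and 916 lower (6.16%) on the Meis1 array. Genes past the rule against both MIG and MIY numbered 102 on the higher side (0.686% of all genes) and 418 on the lower side (2.81%). The 102 are 68% of the genes higher against MIG and 28.3% of those higher against MIY, and the 418 are 63.6% and 45.6% of the genes lower in each. Both comparisons share the Meis1 array. Of the 150 higher genes, 135 were above all 11 other arrays of the series, and of the 657 lower genes 533 were below all of them. The 3 MIG arrays are among these 11, and the rule itself requires a value outside their range. These counts, and later ones against all other arrays, are therefore a description and no separate support.

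**Figure D1:**
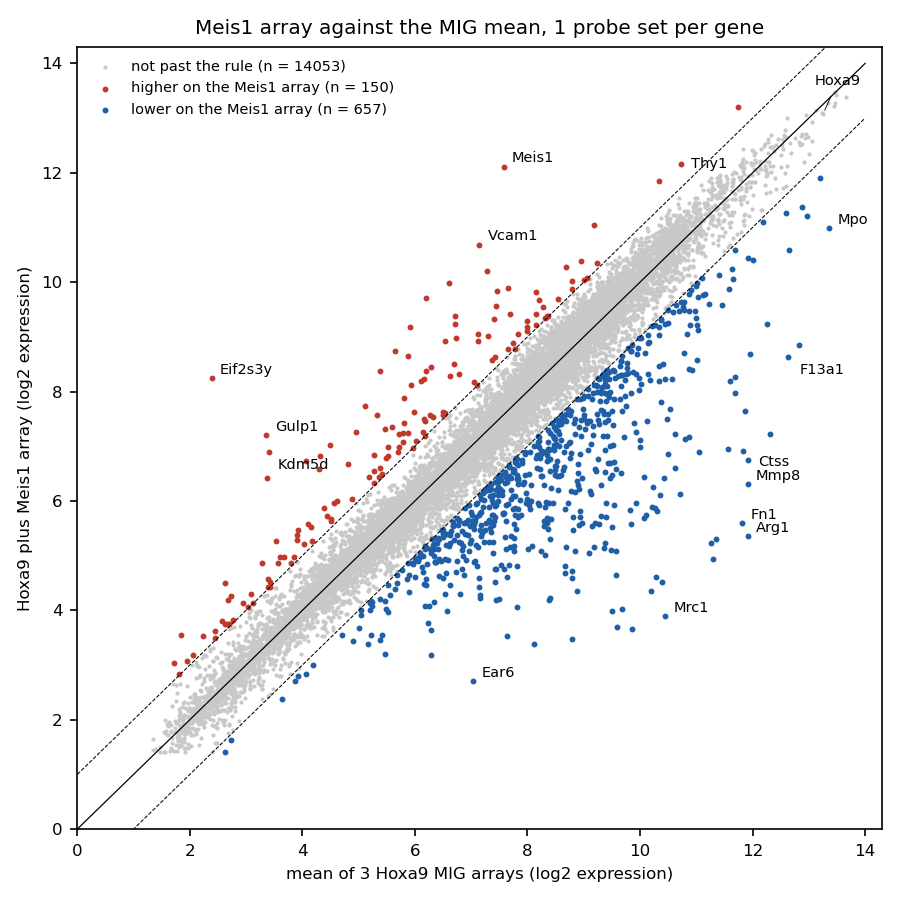
Each point is 1 gene, with the mean of the 3 MIG arrays on the x axis and the Meis1 array on the y axis, both as log2 expression; the solid line marks equal levels and the dashed lines a 2-fold difference. The 657 lower genes (blue) include many with MIG levels above 10 and Meis1 array levels under 6, while most of the 150 higher genes (red) lie nearer to the line.

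The introduced gene was high on the array that names it. Meis1 had a level of 12.11 on the Meis1 array, against 7.57, 7.58 and 7.58 on the MIG arrays, a difference of 4.53 ± 0.15 or 23.2-fold (limma adjusted p = 5.76e-08). On the 11 other arrays its level was 6.74 to 8.10, so none came near the Meis1 array. Hoxa9, which all cultures carried, had a level of 13.07 on the Meis1 array, against 13.24, 13.23 and 13.29 on the MIG arrays, a difference of -0.18 ± 0.09 that did not pass limma (adjusted p = 0.209). Hoxa9 was at 13.19 to 13.41 on the 11 other arrays, all above the Meis1 array. These levels lie near the top of the scale, since the highest value of an array was 13.59 to 13.78. A difference in Hoxa9 may therefore not be measurable. A probe set does not separate the transcript of the vector from that of the mouse gene.

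Genes of the TALE class, the introduced Meis1 among them, were counted as 1 list. Of 9 measured genes of this list, 3 were higher (33.3%, against 1.01% of all genes) and none was lower. The 3 were Meis1 itself, Pbx3 and Pknox1. Since Meis1 was introduced, its place among them was fixed by the design, and the share is no separate result. Of the 9 differences 5 were above 0 and 4 below. Their median was 0.02, and -0.14 against MIY. Pbx3, a Pbx partner of Hox proteins, had a level of 9.19 on the Meis1 array, against 8.03, 8.01 and 7.90 on the MIG arrays, a difference of 1.20 ± 0.48 that missed the limma threshold (adjusted p = 0.129). The MIY arrays had 8.92 and 7.09 for Pbx3, and the first of them was near the Meis1 array. Relative to the median difference Pbx3 differed from MIY by 0.96, short of 2-fold. Pknox1, also called Prep1, competes with Meis1 for Pbx; its level was 8.90 on the Meis1 array, against 7.70, 7.76 and 7.76 on the MIG arrays and 7.64 and 7.31 on the MIY arrays. Its difference from MIG was 1.16 ± 0.13 (limma adjusted p = 0.000174).

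The Hox cluster genes did not pass the 2-fold rule. None of the 16 measured was past it in either direction, and 14 had a difference below 0, with a median of -0.19 against 0.01 over all genes. The largest belonged to Hoxa7, with 5.86 on the Meis1 array, against 6.33, 6.66 and 6.36 on the MIG arrays, a difference of -0.58 ± 0.13 (limma adjusted p = 0.0154). None of the 10 genes of the fetal programme list passed the rule either. Hmga2, a chromatin protein of that list, had the largest value there, a difference of -0.49.

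The genes of highest difference come from several functional classes. Vcam1, an adhesion molecule that binds integrins of blood cells, had a level of 10.69 on the Meis1 array, against 6.91, 7.30 and 7.22 on the MIG arrays, a difference of 3.54 ± 0.62 or 11.7-fold (limma adjusted p = 0.00348). Its level was 7.78 and 5.69 on the MIY arrays, and 5.67 to 7.78 over all other arrays. Gulp1, an adaptor for the engulfment of dead cells, had a level of 7.21 on the Meis1 array, against 3.37, 3.31 and 3.40 on the MIG arrays, a difference of 3.85 ± 0.18. Neto2, an auxiliary subunit of kainate receptors in neurons, had 9.72 on the Meis1 array, against 6.51, 6.05 and 6.04 on the MIG arrays, a difference of 3.52 ± 0.36. In each of these 3 genes the Meis1 array was above every other array of the series.

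Ion channel, transporter and enzyme genes make up most of the rest. Gria2, a glutamate receptor subunit of neurons, had a level of 6.43 on the Meis1 array, against 3.48, 3.30 and 3.32 on the MIG arrays. P2rx3, an ATP-gated ion channel of sensory neurons, had 10.20 on the Meis1 array, against 7.03, 7.14 and 7.66 on the MIG arrays. Aqp8, a water channel, had 8.75 on the Meis1 array, against 5.48, 5.62 and 5.84 on the MIG arrays. These 3 membrane proteins were higher by 2.92 to 3.10 on the log2 scale. Abcb1a encodes the drug efflux pump P-glycoprotein, and its level was 8.37 on the Meis1 array, against 5.44, 5.28 and 5.44 on the MIG arrays, a difference of 2.98 ± 0.14. Gpx8, a peroxidase of the endoplasmic reticulum, differed by 3.38, Glyat, a glycine conjugating enzyme, by 3.27, and Aldh1a7, an aldehyde dehydrogenase, by 2.65. Abhd6, a lipid hydrolase, differed by 2.67 and Gucy1a1, a subunit of the nitric oxide receptor, by 2.78. Of the 15 genes of highest difference, the 13 other than Eif2s3y and Kdm5d were above all other arrays and also passed the rule against MIY.

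The promoters of these genes are shown because Meis1 is a DNA-binding protein. Among the genes of highest difference other than Meis1, the promoter windows of Neto2, Abcb1a and Aldh1a7, from 250 bases before to 50 after the transcription start in RefSeq (GRCm38.p6), hold the core motif of Meis proteins, TGACAG, on 1 of the strands. The capitals mark its reverse complement, since the core lies on the opposite strand to the gene in all 3. The windows run 5′ to 3′ in the direction of the gene, at chr8:85690960-85691259 (minus strand, 1 of 2 windows of Neto2), chr5:8566841-8567140 (plus strand, Abcb1a) and chr19:20727507-20727806 (minus strand, Aldh1a7).
Neto2: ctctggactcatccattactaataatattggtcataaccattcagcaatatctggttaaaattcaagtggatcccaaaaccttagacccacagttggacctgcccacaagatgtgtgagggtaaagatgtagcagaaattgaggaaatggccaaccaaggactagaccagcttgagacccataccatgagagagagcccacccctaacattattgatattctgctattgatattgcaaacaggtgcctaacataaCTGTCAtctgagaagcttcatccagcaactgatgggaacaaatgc
Abcb1a: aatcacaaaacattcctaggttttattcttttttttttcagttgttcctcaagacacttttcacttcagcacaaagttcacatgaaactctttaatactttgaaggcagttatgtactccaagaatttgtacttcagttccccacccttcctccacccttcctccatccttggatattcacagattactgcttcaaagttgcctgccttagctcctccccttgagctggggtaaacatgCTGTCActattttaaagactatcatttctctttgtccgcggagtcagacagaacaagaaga
Aldh1a7: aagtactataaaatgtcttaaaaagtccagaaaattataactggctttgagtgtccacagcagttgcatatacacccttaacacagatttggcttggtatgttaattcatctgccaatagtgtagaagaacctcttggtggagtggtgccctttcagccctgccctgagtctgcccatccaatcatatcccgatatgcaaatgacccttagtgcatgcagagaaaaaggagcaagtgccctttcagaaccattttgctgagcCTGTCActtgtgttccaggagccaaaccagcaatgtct
The core was searched on both strands in the windows of all genes that have one. It was found for 19.5% of the 118 higher genes, 24% of the 524 lower genes and 20.9% of all 11869 genes, and in 18.1% of all 14898 windows. The letters TGATTNAT, a joint motif of Hox and Pbx, were found for 3.39% of the higher, 3.63% of the lower and 2.91% of all genes. The letters TGATTGAC, a joint motif of Pbx and Meis that shares its first letters with the Hox and Pbx motif, were found for 0.847%, 0.573% and 0.935% of them. A match is a description of these letters and not a binding site.

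Of the 15 genes of lowest difference, 3 belong to the monocyte and macrophage list used below, 3 to the late granulocyte list and 2 to the MHC class II list. Arg1, the enzyme that splits arginine and marks alternatively activated mouse macrophages, had a level of 5.36 on the Meis1 array, against 11.84, 11.84 and 12.07 on the MIG arrays. That is a difference of -6.56 ± 0.22, or 94.3-fold lower (limma adjusted p = 6.63e-08), and the MIY arrays had 10.69 and 9.98. Mrc1, the mannose receptor, had 3.89 on the Meis1 array, against 10.45, 10.36 and 10.52 on the MIG arrays. Msr1, a scavenger receptor for modified lipoproteins, had 3.67 on the Meis1 array, against 9.78, 9.97 and 9.83 on the MIG arrays. For all 3 genes the Meis1 array lay far under the MIG range and under every other array. In bulk RNA, fewer cells of a type and less RNA per cell cannot be told apart, which holds for every result below.

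Fn1, which encodes the matrix protein fibronectin, had a level of 5.60 on the Meis1 array, against 11.74, 11.81 and 11.90 on the MIG arrays and 7.69 and 7.51 on the MIY arrays. The MIY arrays thus stood between, and nearer to the Meis1 array. Lpl, the lipase that releases fatty acids from lipoproteins, had 5.29 on the Meis1 array, against 11.25, 11.35 and 11.46 on the MIG arrays. Mmp13, a collagenase, had 4.52 on the Meis1 array, against 9.97, 10.55 and 10.63 on the MIG arrays, and Mmp8, the collagenase of neutrophil granules, had 6.32 against 11.93, 11.98 and 11.84. On the MIY arrays Mmp8 was at 11.61 and 11.94, the first just under the MIG arrays and the second among them. On the Meis1 array the 718 odorant receptor genes, known from sensory neurons of the nose, averaged 3.60, and it is not known whether levels as low as those of Mrc1, Msr1, Mmp13, Mgl2 or Ms4a6d lie above background. The folds of such genes are those of the deposited values. The lectin receptors Mgl2 and Clec4n were lower against MIG by 57.1-fold and 50.9-fold, and the membrane protein Ms4a6d by 40.1-fold. On the MIY arrays Mgl2 was at 6.36 and 5.54, nearer to its level of 4.36 on the Meis1 array than to MIG. Clec4n was at 9.58 and 9.16 on the MIY arrays, and Ms4a6d at 9.78 and 9.52. Serpinb10, an intracellular protease inhibitor, was lower by 45.6-fold. All 15 genes of lowest difference were below all other arrays and also passed the rule against MIY, and of the 46 genes lower by at least 16-fold 44 passed it and 45 were below all other arrays.

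**Figure D2:**
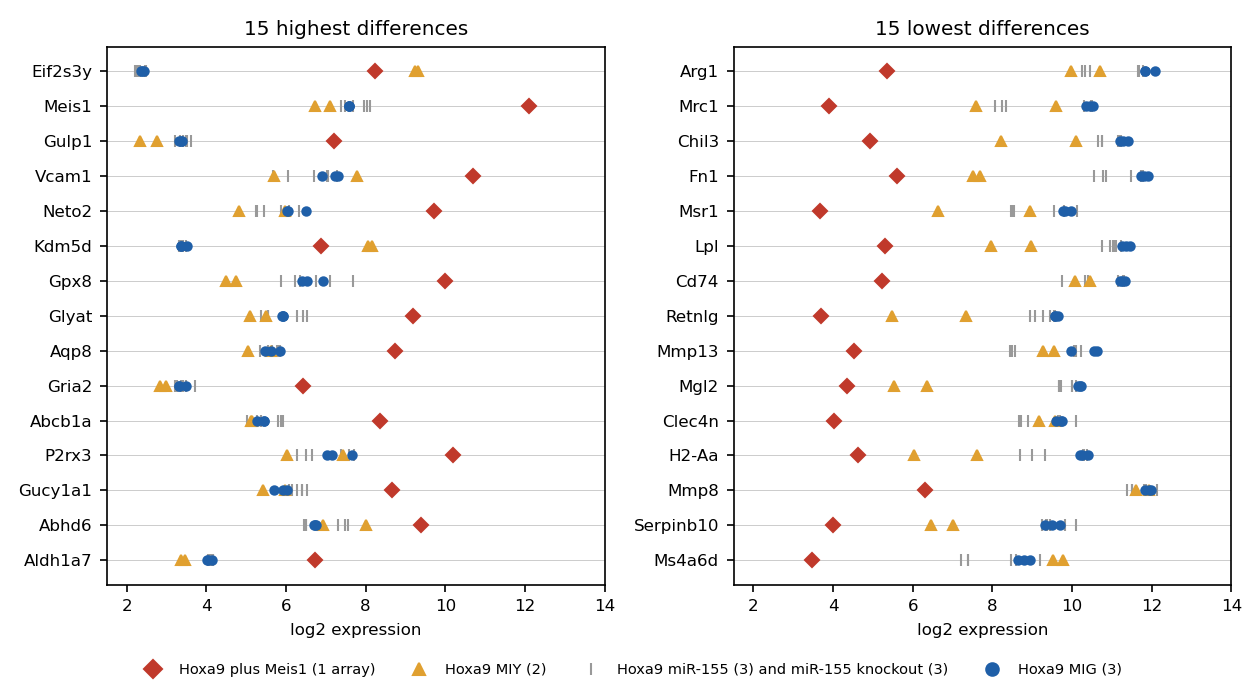
Levels in log2 expression (x axis) of the 15 genes of highest and of lowest difference, with the Meis1 array as a diamond, the 2 MIY arrays as triangles, the 6 arrays of the miR-155 and miR-155 knockout groups as grey ticks and the 3 MIG arrays as circles. On the right the diamond stands left of all other marks in every gene, and on the left Eif2s3y and Kdm5d are the 2 genes in which the MIY arrays lie beyond the Meis1 array.

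The late granulocyte genes, which neutrophils switch on as they mature, were nearly all lower. Of 17 measured, 15 were lower (88.2%, against 4.42% of all genes) and none was higher (against 1.01% of all genes). Their median difference was -3.28, against 0.01 over all genes. Their mean level was 7.01 on the Meis1 array, against 10.26, 10.30 and 10.23 on the MIG arrays. Chil3, a chitinase-like protein of mature myeloid cells, had 4.93 on the Meis1 array, against 11.40, 11.19 and 11.28 on the MIG arrays. Retnlg, a resistin-like secreted protein, had 3.69 on the Meis1 array, against 9.65, 9.56 and 9.57 on the MIG arrays. S100a9, a subunit of calprotectin, had 6.95 on the Meis1 array, against 11.64, 11.54 and 11.54 on the MIG arrays, a difference of -4.63 ± 0.41 (limma adjusted p = 3.86e-05). Ltf, the lactoferrin of specific granules, was lower by 21-fold and Ngp, another granule protein, by 15.7-fold. Of the 15 genes, 14 were also lower against MIY, where the median of the list was -2.73.

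The monocyte and macrophage genes followed the same course in part. Of 21 measured, 16 were lower (76.2%, against 4.42% of all genes), none was higher, and the median difference was -1.77. Csf1r, the receptor that macrophages need for survival, had a level of 6.10 on the Meis1 array, against 10.30, 10.42 and 10.35 on the MIG arrays, a difference of -4.25 ± 0.28 (limma adjusted p = 5.85e-06). Ctss, a lysosomal protease of antigen presenting cells, had 6.75 on the Meis1 array, against 11.85, 11.94 and 11.97 on the MIG arrays. Gpnmb, a membrane glycoprotein of macrophages, had 6.91 on the Meis1 array, against 11.76, 11.91 and 11.83 on the MIG arrays. Against MIY, 14 of the 16 genes were lower as well, and the median of the list was -1.99.

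Some macrophage genes did not share this. Adgre1, which encodes an adhesion receptor of mouse macrophages and was picked out after its values were seen, had 10.77 on the Meis1 array, against 9.88, 10.01 and 9.94 on the MIG arrays. Its difference of 0.83 ± 0.09 was short of 2-fold but passed limma (adjusted p = 0.000114), and the MIY arrays had 10.53 and 10.47. In the MHC class II and dendritic cell list, 2 of 11 genes were lower (18.2%, against 4.42% of all genes) and Flt3 was higher. The median was -0.18, or -0.11 without MIG array 1 and -0.09 without MIG array 2. The lower genes were H2-Aa, a chain of an MHC class II molecule, with 4.62 on the Meis1 array, against 10.25, 10.39 and 10.20 on the MIG arrays, and Cd74, the invariant chain, with 5.22 against 11.26, 11.34 and 11.21. On the MIY arrays H2-Aa was at 6.04 and 7.61 and Cd74 at 10.07 and 10.45.

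**Figure D3:**
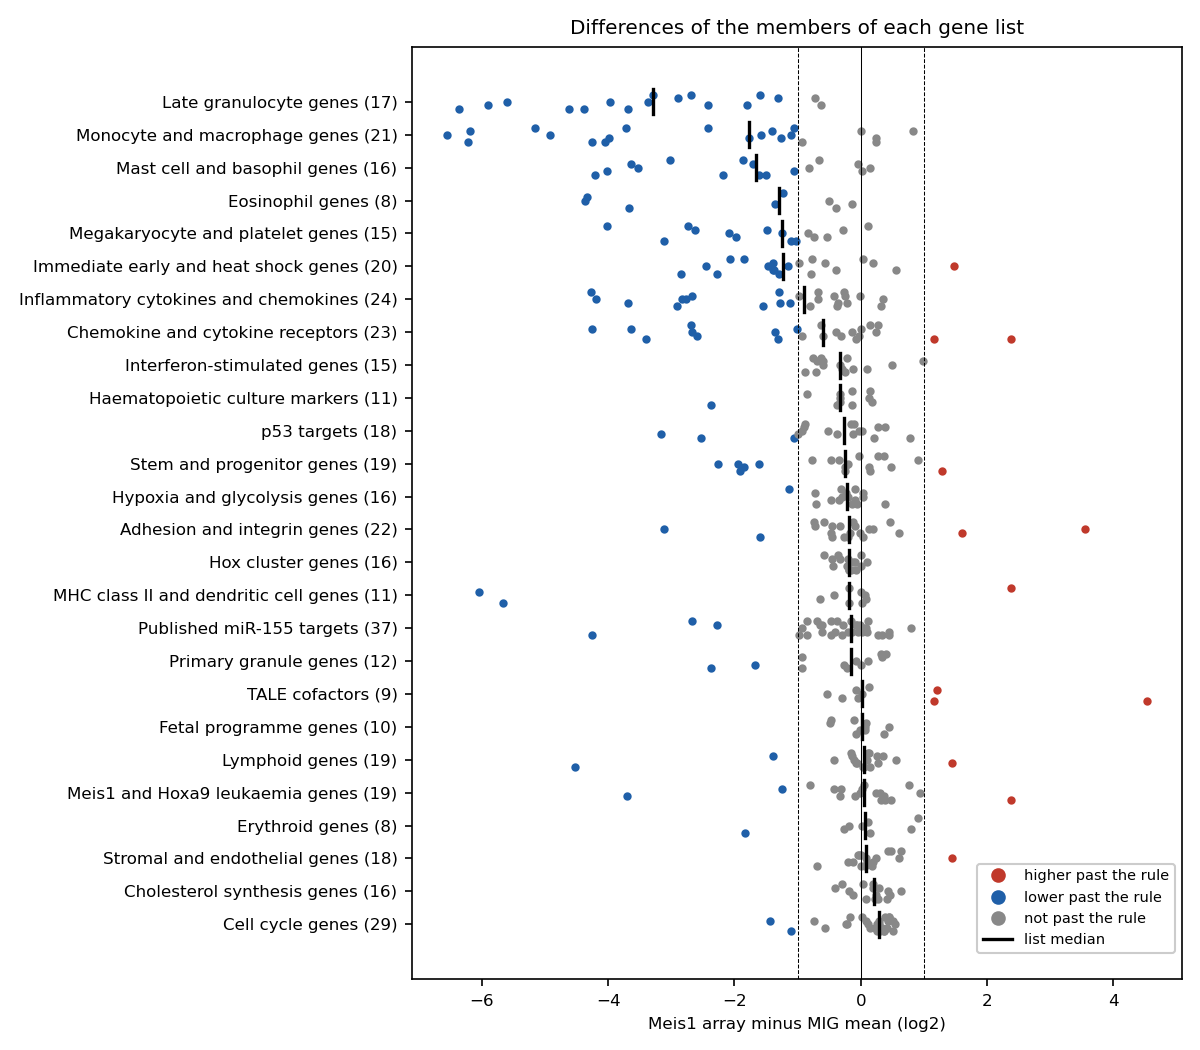
Each point is 1 gene of a list, placed by its difference between the Meis1 array and the MIG mean on the log2 scale (x axis); the number of measured genes stands after each list name, black bars are list medians and dashed lines mark 2-fold. The late granulocyte, monocyte and macrophage, mast cell and basophil, eosinophil, megakaryocyte, and immediate early lists have medians at or under -1, and no list drawn has a median above 1; the sex-linked genes are not drawn.

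The primary granule genes, which promyelocytes express before the late genes, were mostly within 2-fold of the MIG mean. Of 12 measured, 2 were lower (16.7%, against 4.42% of all genes), none was higher, and the median was -0.15. Mpo, the myeloperoxidase of primary granules, had 10.99 on the Meis1 array, against 13.38, 13.34 and 13.37 on the MIG arrays, a difference of -2.38 ± 0.12 (limma adjusted p = 8.8e-07). Its neighbours in the same granules, named after their values were seen, did not pass limma: Elane, the neutrophil elastase, had 13.39 on the Meis1 array, against 13.70, 13.68 and 13.62 on the MIG arrays (adjusted p = 0.651). Prtn3, proteinase 3, had 13.27 on the Meis1 array, against 13.42, 13.37 and 13.26 on the MIG arrays (limma adjusted p = 0.814). Ctsg, cathepsin G, had 12.62 on the Meis1 array, against 12.33, 12.28 and 12.21 on the MIG arrays (limma adjusted p = 0.0703). The Elane and Prtn3 levels lie near the top of the scale, since the highest value of an array was 13.59 to 13.78, and a difference there may not be measurable. The other lower gene was Hp, haptoglobin, with a difference of -1.67 ± 0.19.

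Of the transcription factors that direct myeloid development, Cebpa, Cebpe and Spi1 did not pass the 2-fold rule and Irf8 did. Cebpa, which starts granulocyte development, had 9.39 on the Meis1 array, against 9.22, 9.48 and 9.47 on the MIG arrays, with a limma standard error of 0.15 on the difference. On the MIY arrays Cebpa was lower, at 8.43 and 8.10. Cebpe, which drives the late granule genes, had 8.12 on the Meis1 array, against 7.94, 8.06 and 8.01 on the MIG arrays, a difference of 0.12 ± 0.21. Spi1, which encodes PU.1, had 10.88 on the Meis1 array, against 11.75, 11.73 and 11.69 on the MIG arrays, a difference of -0.84 ± 0.17 that passed limma (adjusted p = 0.0068) but not the 2-fold rule. Its MIY levels were 11.17 and 10.78, and the second lay under the Meis1 array. Irf8, a factor of monocytes and dendritic cells, had 7.58 on the Meis1 array, against 8.55, 8.86 and 8.65 on the MIG arrays, a difference of -1.11 ± 0.20 (limma adjusted p = 0.0045). Irf8 was below all other arrays, and the MIY arrays had 9.35 and 9.33.

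Id2, an inhibitor of basic helix-loop-helix factors, was the most different gene of the list of Meis1 and Hoxa9 leukaemia genes. It had a level of 7.18 on the Meis1 array, against 10.85, 11.01 and 10.77 on the MIG arrays, a difference of -3.70 ± 0.17 (limma adjusted p = 4.76e-07). Flt3 was the 1 higher gene of that list, with 8.92 on the Meis1 array, against 6.56, 6.58 and 6.48 on the MIG arrays, a difference of 2.38 ± 0.27 or 5.2-fold (limma adjusted p = 0.000233). The MIY arrays had 5.92 and 6.90, and the Meis1 array was above all others for Flt3. Mef2c, a MADS-box factor, was lower by 2.37-fold. Of the 19 measured genes of the list 1 was higher (5.26%) and 2 were lower (10.5%), against 1.01% and 4.42% of all genes, and the median was 0.06. Msi2, an RNA-binding protein of stem cells that was picked out after its values were seen, had 10.34 on the Meis1 array, against 9.42, 9.36 and 9.44 on the MIG arrays, short of 2-fold but past limma (adjusted p = 6.81e-05).

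The stem and progenitor list gave 1 higher (5.26%) and 5 lower (26.3%) genes of 19, against 1.01% and 4.42% of all genes, with a median of -0.25. Kit, the receptor for SCF, had 10.06 on the Meis1 array, against 9.91, 9.89 and 9.92 on the MIG arrays, and Cd34, a surface marker of progenitors, had 10.37 against 9.96, 9.85 and 9.86. Neither difference passed limma (adjusted p = 0.434 for Kit and 0.444 for Cd34). Angpt1, the ligand of the Tek receptor, was the higher gene, with 9.55 on the Meis1 array, against 8.35, 8.30 and 8.16 on the MIG arrays. Slamf1, a surface marker of blood stem cells, was lower by 4.78-fold. Prom1, another surface marker, differed by -1.92 ± 0.67 and did not pass limma. The error of limma pools all groups, and the MIY arrays were far apart for Prom1, at 7.09 and 4.53, while the SD of the MIG arrays was 0.17. For Cd34 the MIY arrays had 9.36 and 10.70, and the SD of the MIG arrays was 0.06.

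**Figure D4:**
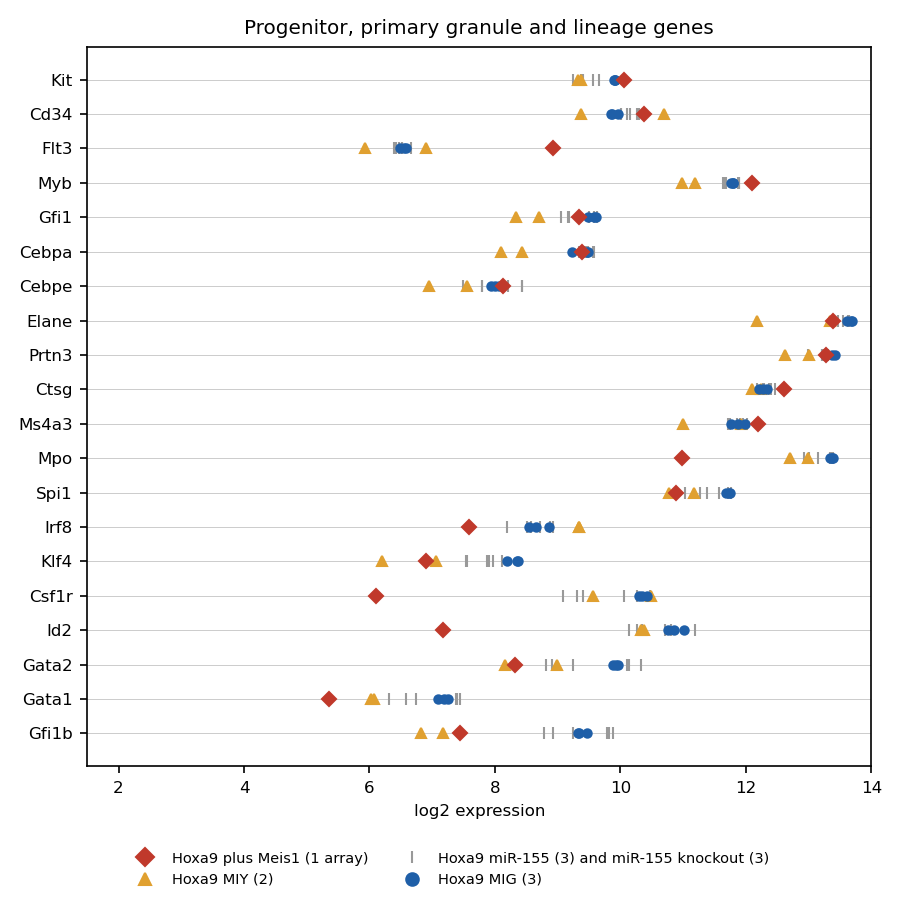
Levels in log2 expression (x axis) of progenitor genes, primary granule genes and lineage regulators, with the Meis1 array as a diamond, the 2 MIY arrays as triangles, the 6 arrays of the miR-155 and miR-155 knockout groups as grey ticks and the 3 MIG arrays as circles. The diamond lies near the circles for Cebpa and Prtn3, to the right of all other marks for Flt3 and far to the left of the circles for Csf1r and Id2.

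The genes of mast cells and basophils were lower against MIG but for the most part not against MIY. Of 16 measured, 11 were lower against MIG (68.8%, against 4.42% of all genes) and none was higher, with a median of -1.66. Of the 11, 3 were also lower against MIY, where the median was -0.42. The mean level of the list was 7.21 on the Meis1 array, against 9.14, 9.02 and 9.04 on the MIG arrays, and it was 7.36 and 7.67 on the MIY arrays. Fcer1a, the alpha chain of the IgE receptor, had 5.16 on the Meis1 array, against 9.57, 9.10 and 8.87 on the MIG arrays and 4.71 and 5.91 on the MIY arrays. Prss34, a basophil protease, had 6.98 on the Meis1 array, against 10.11, 9.92 and 9.99 on the MIG arrays and 6.79 and 6.77 on the MIY arrays. In both genes the Meis1 and MIY arrays were low together. Tph1, the enzyme of serotonin synthesis in mast cells, was lower by 18.5-fold against MIG and Hdc, which makes histamine, by 12.5-fold. Ms4a2, the beta chain of the IgE receptor, was lower by 11.5-fold and Cma1, a chymase, by 4.55-fold. Tph1, Hdc and Ms4a2 were the 3 genes also lower against MIY. On the MIY arrays Cma1 was at 5.56 and 6.32, on either side of the Meis1 array at 5.85.

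The GATA factors of these lineages were also lower against MIG. Gata2 had 8.31 on the Meis1 array, against 9.93, 9.96 and 9.88 on the MIG arrays, a difference of -1.61 ± 0.26 (limma adjusted p = 0.00237). Its MIY levels were 8.15 and 8.99, on either side of the Meis1 array. Gata1, the factor of red cells, megakaryocytes, mast cells and eosinophils, had 5.35 on the Meis1 array, against 7.19, 7.09 and 7.26 on the MIG arrays and 6.02 and 6.07 on the MIY arrays, a difference from MIG of -1.83 ± 0.14 (limma adjusted p = 1.72e-05). Gfi1b, a repressor of red cells and megakaryocytes, had 7.44 on the Meis1 array, against 9.33, 9.47 and 9.35 on the MIG arrays and 6.82 and 7.17 on the MIY arrays, so it was low against MIG and above both MIY arrays. Of the 8 measured genes of the erythroid list Gata1 alone passed the rule (12.5% lower, against 4.42% of all genes).

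The megakaryocyte and platelet genes gave 10 lower (66.7%, against 4.42% of all genes) and no higher genes of 15 against MIG, with a median of -1.25. Of the 10 genes 5 were also lower against MIY, where the median was -0.21. Ppbp, a platelet chemokine, had 6.60 on the Meis1 array, against 10.62, 10.74 and 10.51 on the MIG arrays and 10.55 and 9.19 on the MIY arrays. Selp, the P-selectin of platelets and endothelium, was lower by 8.64-fold against MIG, Rab27b, a factor of granule release, by 6.66-fold, and Pf4, platelet factor 4, by 6.14-fold. Gp5 and Gp9, subunits of the platelet receptor for von Willebrand factor, were lower by 4.24-fold and 3.92-fold. Rab27b and Gp5 did not pass the rule against MIY, while Ppbp, Selp, Pf4 and Gp9 did. Of 8 eosinophil genes 5 were lower against MIG (62.5%, against 4.42% of all genes), with a median of -1.29. Of the 5, 4 were also lower against MIY, where the median was -0.92. Epx, the eosinophil peroxidase, had 5.75 on the Meis1 array, against 9.84, 10.06 and 10.42 on the MIG arrays, and Ear6, a granule ribonuclease, had 2.70 against 7.02, 6.95 and 7.16. Prg2 and Prg3, the major basic proteins, were lower by 12.7-fold and 2.56-fold, and Siglecf, a surface lectin, by 2.33-fold.

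Several inflammatory cytokines and chemokines were lower on the Meis1 array. Of 24 measured, 11 were lower (45.8%, against 4.42% of all genes), none was higher, and the median was -0.89. Of the 11, 10 were also lower against MIY, where the median was -1.52. Ccl2, which attracts monocytes, had 5.57 on the Meis1 array, against 9.73, 9.80 and 10.00 on the MIG arrays. Il6 had 4.19 on the Meis1 array, against 8.49, 8.34 and 8.33 on the MIG arrays; the culture medium also contained IL6 as protein. Il1b had 5.57 on the Meis1 array, against 9.35, 9.28 and 9.17 on the MIG arrays. The differences of these 3 genes were -4.27 ± 0.48, -4.19 ± 0.25 and -3.69 ± 0.27. Il1a was lower against MIG by 7.52-fold, Cxcl2, a neutrophil chemokine, by 7.13-fold, and Csf1, the ligand of Csf1r, by 6.83-fold. On the MIY arrays Csf1 was at 7.63 and 7.30, against 6.69 on the Meis1 array. Cxcl2 was at 8.07 and 7.61 on the MIY arrays and Il1a at 8.34 and 8.09, against 6.71 and 4.51 on the Meis1 array.

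Among 23 chemokine and cytokine receptors, 9 were lower (39.1%, against 4.42% of all genes) and 2 were higher (8.7%, against 1.01%), with a median of -0.60. Against MIY, 8 of the 9 and 1 of the 2 passed the rule as well, and the median was -0.55. The higher ones were Flt3, given above, and Cxcr3, named because it is the other, with 5.68 on the Meis1 array, against 4.40, 4.70 and 4.43 on the MIG arrays. Il6st, the signalling chain gp130 of the IL6 receptor, had 6.43 on the Meis1 array, against 10.03, 10.14 and 10.05 on the MIG arrays and 9.26 and 9.68 on the MIY arrays. Ccr1, a chemokine receptor of monocytes, was lower by 10.6-fold, and Cxcr2, the chemokine receptor of neutrophils, by 6.46-fold. Il1r1, the signalling receptor of interleukin 1, was lower by 6-fold, and Il1r2, its decoy receptor, by 6.36-fold.

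Immediate early genes, which cells switch on within minutes of a stimulus, were counted with heat shock genes in 1 list. Of 20 measured, 11 were lower (55%, against 4.42% of all genes) and 1 was higher (5%, against 1.01%), with a median of -1.22. Of the 11, 7 were also lower against MIY, where the median was -0.58. Fos had 5.93 on the Meis1 array, against 7.97, 8.55 and 8.10 on the MIG arrays, a difference of -2.27 ± 0.31 (limma adjusted p = 0.000731). Egr1 had 6.65 on the Meis1 array, against 8.38, 8.58 and 8.53 on the MIG arrays and 7.27 and 7.93 on the MIY arrays. Egr2 had 6.53 on the Meis1 array, against 9.29, 9.36 and 9.48 on the MIG arrays, and was lower still on the MIY arrays, at 5.90 and 5.51. Zfp36, which speeds the decay of cytokine mRNAs, was lower by 5.48-fold and Atf3, a stress-induced factor, by 4.22-fold. The higher gene was the heat shock protein gene Hsph1, with 9.68 on the Meis1 array, against 8.20 ± 0.21 on the MIG arrays.

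Of 22 adhesion genes measured, 2 were higher and 2 were lower, with a median of -0.19. Each count is 9.09% of the list, against 1.01% higher and 4.42% lower of all genes. Beside Vcam1, Itgav, the alpha chain of vitronectin receptors, was higher, with 10.27 on the Meis1 array, against 8.68, 8.67 and 8.68 on the MIG arrays. Itgam, which encodes CD11b, was lower with Selp, and it had 10.41 on the Meis1 array, against 11.97, 12.00 and 12.04 on the MIG arrays, a difference of -1.59 ± 0.22 (limma adjusted p = 0.000866).

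Lymphoid, stromal and endothelial markers mostly lay within 2-fold of the MIG mean. Of 19 lymphoid genes 1 was higher (5.26%) and 2 were lower (10.5%), against 1.01% and 4.42% of all genes, with a median of 0.05. The T cell marker Cd3e stood at 5.69 on the Meis1 array, against 5.65 ± 0.04 on the MIG arrays. Il7r, the receptor of interleukin 7, had 4.35 on the Meis1 array, against 8.87 ± 0.24 on the MIG arrays, and Cd79b, a chain of the B cell receptor, was lower by 2.61-fold. Thy1, a surface protein of T cells, stem cells and stroma, was the higher gene, with 12.17 on the Meis1 array, against 10.60, 10.83 and 10.74 on the MIG arrays. Of 18 stromal and endothelial genes Thy1 was the 1 gene past the rule (5.56% higher, against 1.01% of all genes). The list median was 0.08 (0.15 without MIG array 3), and the mean level was 6.24 on the Meis1 array, against 6.04, 6.03 and 6.09 on the MIG arrays. The part of such cells in the results was not tested. Of 11 markers of blood cells 1 was lower, Mpo (9.09%, against 4.42% of all genes). The mean level of the 11 was 11.03 on the Meis1 array, against 11.41, 11.43 and 11.43 on the MIG arrays.

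Most cell cycle genes lay within 2-fold of the MIG mean, with 6.9% lower past the rule against 4.42% of all genes. The shares that limma called were somewhat above those of all genes on both sides. Of 29 measured, none was higher by 2-fold and 2 were lower, and limma called 3 higher and 4 lower, against 6.12% and 9.38% of all genes. Of the 29 genes 22 had a difference above 0, against 7660 of all 14860 genes, and the median was 0.30. Their mean level was 9.70 on the Meis1 array, against 9.67, 9.61 and 9.53 on the MIG arrays, so the first MIG array stood close to the Meis1 array. Cdkn2c, an inhibitor of the kinases Cdk4 and Cdk6, was lower by 2.71-fold, and E2f2, an activator of replication genes, by 2.15-fold. Of 18 targets of p53 3 were lower (16.7%, against 4.42% of all genes) and none was higher. Their median was -0.26 against MIG and -0.60 against MIY. The 3 lower targets were Plk2, a polo-like kinase, lower by 8.97-fold, Btg2, an antiproliferative gene, by 5.75-fold, and Cdkn1a, the cell cycle inhibitor p21, by 2.09-fold. Of 16 hypoxia and glycolysis genes 1 was lower (6.25%, against 4.42% of all genes), Ndrg1, with a difference of -1.13 ± 0.14.

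None of the 16 cholesterol synthesis genes passed the rule against MIG, and their median was 0.22, against 1.05 in the comparison with MIY. Without MIG array 3, on which the list had its lowest mean level, the median was 0.11. Ebp, a sterol isomerase, had the largest difference from MIG, 0.63 ± 0.18. The interferon-stimulated genes stood near the MIG level and far from the MIY level. None of the 15 measured passed the rule against MIG, with a median of -0.32, and the median against MIY was -4.49. Their mean level was 5.72 on the Meis1 array, against 5.99, 6.06 and 6.00 on the MIG arrays, and it was 9.91 and 9.67 on the MIY arrays. Zbp1, a sensor of nucleic acids, had the largest difference from MIG in that list, 0.98 ± 0.14.

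The microRNA in the series title has no probe set named for it, so its level was not measured here. Its mature form in RefSeq, from chr16:84714143-84714165 (plus strand, GRCm38.p6), is printed because targets are recognised through its seed, bases 2 to 8, in capitals.
mmu-miR-155-5p: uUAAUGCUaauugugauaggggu
Of 37 measured genes from a list of published miR-155 targets, none was higher past 2-fold and 3 were lower, against 1.01% and 4.42% of all genes, with a median of -0.16, against 0.01 over all genes. Limma called 9 of them lower and none higher, against 9.38% and 6.12% of all genes. The 3 past the rule were Csf1r and Fos, given above, and Satb1, a chromatin organiser, with 4.76 on the Meis1 array, against 7.30, 7.45 and 7.57 on the MIG arrays, a difference of -2.68 ± 0.61 (limma adjusted p = 0.014).

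Well-studied targets of miR-155, named after their values were seen, were within 2-fold of the MIG mean. Socs1, which blocks cytokine signalling, had 8.20 on the Meis1 array, against 8.81, 8.80 and 8.84 on the MIG arrays, a difference of -0.62 ± 0.10 (limma adjusted p = 0.00277). Cebpb had 8.09 on the Meis1 array, against 8.81, 9.01 and 9.01 on the MIG arrays, a difference of -0.85 ± 0.14 (limma adjusted p = 0.00298). Jarid2, a partner of the Polycomb complex, had 9.12 on the Meis1 array, against 9.38, 9.46 and 9.42 on the MIG arrays and just missed the limma threshold (adjusted p = 0.0523). Inpp5d, the phosphatase SHIP1, had 10.20 on the Meis1 array, against 10.16, 10.24 and 10.26 on the MIG arrays (limma adjusted p = 0.895), and Bach1, a transcription repressor, had 8.67 against 8.68, 8.80 and 8.92.

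The number of genes past the rule on the Meis1 array was set beside the same count for each other array, all against the same 3 MIG arrays. These counts use the deposited values, in which the median differences of the MIY arrays from MIG were -0.219 and -0.23. With arrays shifted to a common median, the largest count on another array, higher and lower together, was 1067 in place of 1219. The MIY arrays had 200 higher and 598 lower genes in 1 culture and 305 and 914 in the other, against 150 higher and 657 lower on the Meis1 array, so the first MIY culture had more higher and fewer lower genes and the second more of both. The 3 arrays with added miR-155 had 19 to 27 higher and 99 to 152 lower genes, and the 3 miR-155 knockout arrays had 11 to 20 and 17 to 19. Large differences were distributed otherwise: by at least 16-fold the Meis1 array had 2 higher and 46 lower genes, and the MIY arrays had 16 higher and 5 lower in 1 culture and 13 and 7 in the other. No array of the miR-155 or knockout groups had a gene past 16-fold. A 2-fold count of this size against MIG was therefore also seen in cultures without added Meis1.

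**Figure D5:**
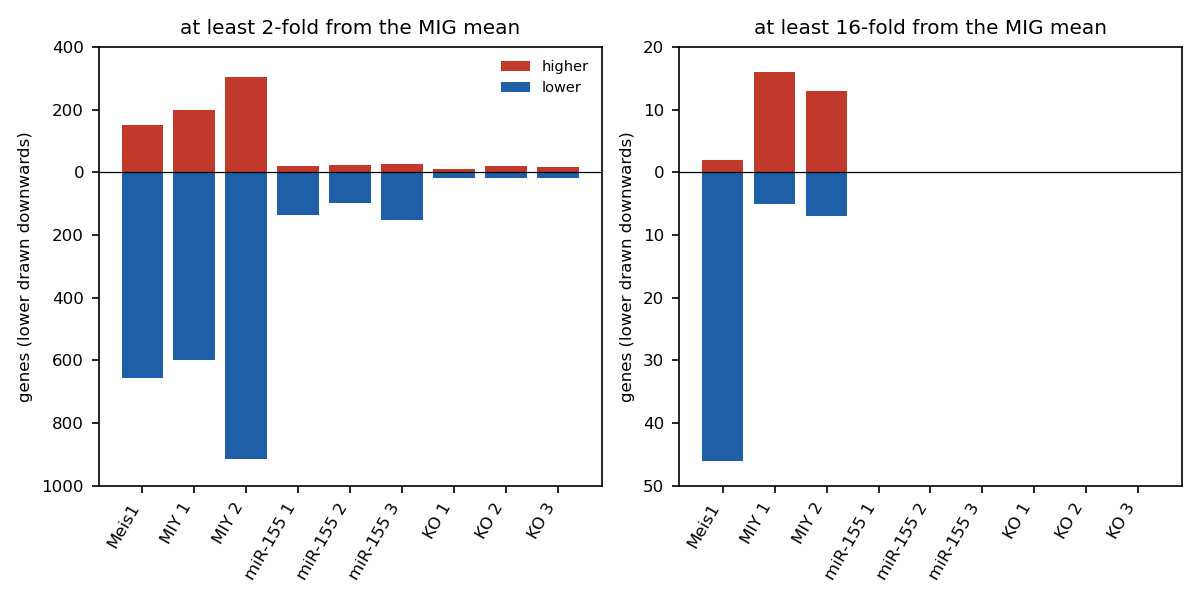
Bars give the number of genes (y axis) that lay at least 2-fold (left) or at least 16-fold (right) from the mean of the 3 MIG arrays and outside their range, for each other array of the series, with higher genes above the line and lower genes drawn downwards; KO marks cultures of miR-155 knockout mice. The counts use deposited values, in which the MIY arrays have median differences of -0.219 and -0.23 from MIG. At 2-fold the Meis1 array has 150 higher and 657 lower genes, and the MIY arrays have 200 and 598 in 1 culture and 305 and 914 in the other. At 16-fold the Meis1 array has 46 lower genes, against 5 and 7 on the MIY arrays.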

How the data were processed

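RNA of 12 cultures was extracted with a Qiagen RNeasy Plus kit and labelled with biotin for Affymetrix arrays, per the labels' protocols. The deposited values are log2 expression levels. The submitters' processing notes name RMA and the Affymetrix Expression Console, with no version given in these sources. RMA subtracts background, gives all arrays the same distribution of probe values and combines the probes of a set. There were no missing values or identical arrays. The number of arrays, not a read depth, limits the precision. Nothing in the labels says which cultures came from separate mice, so p-values measure the spread between these arrays.

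Symbols came from the platform annotation: 14996 probe sets have 1 symbol, 1019 several and 7317 none, and 14941 of the first are in RefSeq's mouse gene table. Limma 3.58.1 in R 4.3.3 was fitted with a mean for each of the 5 groups (7 residual degrees of freedom and 3.06 from the prior), with Benjamini-Hochberg adjustment over 16015 probe sets that carry a symbol. The fit and the 2-fold rule were tested on simulated data. Of changes of 1 on the log2 scale the 2-fold rule found 38% and limma 78%, and of changes of 2 they found 100% and 98%. The simulated Meis1 array was given the pooled spread, so that assumption was not tested. Promoter motifs and list counts were made with pandas 2.3.3 and numpy 2.4.6.

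Named genes are Meis1, Hoxa9, the sex-linked genes, 9 regulators, the 15 highest and 15 lowest differences past both the rule and limma, leaving out predicted genes and odorant receptors, and up to 6 genes a list; a few others are marked in the text as picked after their values were seen. The comparison, the 27 lists and the rules were chosen with earlier results of these data known. Alternatives are another scaling, another control group, a floor on levels, other folds, other fits and leaving out each MIG array.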

Additional observations from a re-analysis of the deposited data

Results flagged for a closer look

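Probe sets without a gene symbol lay outside the comparisons of genes. Of these 7317 probe sets, 245 were higher past 2-fold on the Meis1 array (3.35%) and 515 were lower (7.04%), against 1% and 4.41% of the probe sets with 1 symbol. What they measure is not named in the annotation used here.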

How the results depend on the processing

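With probe sets counted singly, 150 were higher and 662 lower, and at least 1.5-fold gave 643 and 1266, at least 4-fold 33 and 210. With MIY in place of MIG, 364 probe sets were higher and 928 lower relative to the median difference, and 781 and 646 as deposited, where the higher side exceeded the lower. Without each MIG array in turn the counts were 150 to 163 higher and 634 to 694 lower. Limma's 956 higher calls over all probe sets with a symbol became 1666 after quantile normalization, 5297 against MIY as deposited, 2742 against the mean of MIG and MIY, and 585 to 755 without each MIG array (620 without array 2 and 585 without array 3), and its 1504 lower calls 1152 to 1367; the share of higher calls was 38.9%, and 54.4% after quantile normalization. For arrays that share a replicate number the correlation of their deviations was -0.0137 to 0.155, and for unlike numbers -0.14 to 0.0741. Whether the number marks cultures made together was not tested. With it as a replicate block limma called 710 higher and 1643 lower. Against MIY as deposited the difference turned for Eif2s3y (-1.03), Kdm5d (-1.21), Gfi1b (0.44), Prss34 (0.20), Prg3 (0.0286), Rab27b (0.13), Gp5 (0.47), Egr2 (0.82) and Zbp1 (-1.74, and -0.38 against the mean of both controls), and the median of the sex-linked genes was -1.35 relative to the median difference; the cause was not tested. Leaving out a MIG array ended limma's call for 2 of the named genes it called, Hmga2 (without array 1 or 2) and Ebp (without array 2 or 3), both under 2-fold; the calls of Hoxa7, Prg3 and Spi1 ended against the mean of both controls. List medians near 0 changed sign for TALE cofactors (-0.14 against MIY), Hox genes (0.02 against MIY), fetal programme genes (-0.46 with levels of at least 6), primary granule genes (0.13 against the mean of both controls) and lymphoid genes (-0.67 with levels of at least 6). The other list medians kept their sign under the alternatives run.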

Other observations

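Gene families defined by their symbols were chosen after the values were seen, so their counts are a description and no support for the lower side. Of 12 Toll-like receptor genes, which sense microbial molecules, 6 were lower and none was higher, against 4.42% and 1.01% of all genes. Tlr7 had a level of 3.38 on the Meis1 array, against 8.28, 8.13 and 7.94 on the MIG arrays, and Tlr8 had 3.53 against 7.70, 7.61 and 7.62. Tlr4, the receptor of bacterial lipopolysaccharide, had 10.36 on the Meis1 array, against 10.39, 10.43 and 10.53 on the MIG arrays. Of 16 receptors for ATP and related nucleotides 8 were lower (50%) and 2 higher (12.5%). P2ry13 had 5.09 on the Meis1 array, against 8.97, 8.94 and 8.60 on the MIG arrays, which is opposite to P2rx3. Of 24 C-type lectin genes 7 were lower (29.2%) and 1 was higher (4.17%). The higher one was Clec11a, a growth factor for blood cells, with 8.50 on the Meis1 array, against 6.63, 6.82 and 6.64 on the MIG arrays.

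Of 20 matrix metalloproteinase genes 5 were lower (25%) and 1 was higher (5%), against 4.42% and 1.01% of all genes, with a median of -0.04. Mmp12, the elastase of macrophages, had 7.23 on the Meis1 array, against 12.19, 12.36 and 12.39 on the MIG arrays. Of 14 cathepsin genes 5 were lower (35.7%), and Ctsh had 5.22 on the Meis1 array, against 9.38, 9.46 and 9.27 on the MIG arrays. Of 7 Cd300 genes 4 were lower (57.1%) and of 12 Ms4a genes 3 (25%). The median of the Ms4a genes was -0.03. In the Ms4a family Ms4a3, a gene of granulocyte progenitors, had 12.20 on the Meis1 array, against 11.98, 11.88 and 11.76 on the MIG arrays, and Ms4a6c had 4.71 against 8.83, 8.82 and 8.75.

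Of the 150 higher genes, 27 encode odorant receptors, of 718 such genes measured (3.76%, against 1.01% of all genes), and 8 of the 718 were lower. The 27 had levels of 2.84 to 6.00 on the Meis1 array with a median of 4.26, under the array's own median of 6.33, and 12 of them also passed the rule against MIY. In all, 43 of the 150 higher genes were below a level of 6 on the Meis1 array, as were 288 of the 657 lower genes.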
